A study of Mus musculus with 11 samples.

Results

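Prdm8, Bhlhe22 and Prdm16 are 3 transcription regulators of the developing forebrain. They are 3 of the 48440 genes of the RNA-seq count table, of which 14432 were tested, and of the 32285 genes of the scRNA-seq matrices, and they were chosen with their change between genotypes in the cultures known. Their values in that contrast, and their position in it, are therefore given as a description with no test. The question was how the genes differ between genotypes in cultured neural progenitor cells (NPCs) and in which cells of the neocortex they are expressed.

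The mice carried loxP sites around exons of Syncrip, an RNA-binding protein, on a C57BL/6 background, and the conditional knockout (cKO) was Syncrip fl/fl with Emx1-Cre, which acts in the dorsal telencephalon and spares cells born in the ganglionic eminence (GE). RNA-seq compared 3 WT with 3 cKO cultures of NPCs dissected around the lateral ventricles at E14.5 and expanded with EGF and bFGF, so these were cultured cells and not fresh tissue. scRNA-seq compared the dorsal cortex of 1 WT with that of 1 cKO embryo of the same litter at E14.5. The LACE-seq libraries of the series were not analysed here.

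PRDM proteins carry a PR domain, related to histone methyltransferase domains, and zinc fingers that bind DNA. Prdm8 and the basic helix-loop-helix (bHLH) factor Bhlhe22 are known to act as one repressor complex in postmitotic cortical neurons, where Cdh11, a cadherin, is a known target and loss of either gene disturbs corticospinal axons. Bhlhe22 also takes part in giving cortical areas their identity. Prdm16 is known from radial glia, the neural stem cells of the cortex, where it controls chromatin at enhancers, limits Pdzrn3, a ubiquitin ligase gene, and shapes neuron production and migration.

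The genes lie apart from each other, on mouse assembly GRCm38. Prdm8 spans chr5:98167198-98188991 on the plus strand, with 2 annotated transcripts. Bhlhe22 spans chr3:18054174-18057517 on the plus strand and has 1 transcript. Prdm16 spans chr4:154316125-154636873 on the minus strand, a locus of 320749 bases with 13 transcripts. Of the 4855 exonic bases of Prdm8, 1411 (29.1%) are shared with the antisense gene A730035I17Rik, which was listed at 0 counts in all 6 cultures. Whether the counting used strand is not given in the sources used here, so reads of the antisense gene could not be told from those of Prdm8. For Prdm16, 109 of 9321 exonic bases (1.17%) are shared with other genes, and Bhlhe22 shares none.

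The 250 bases before the RefSeq start of Prdm8 and of Prdm16 are shown because both genes were lower in the cKO cultures. Sequences are from RefSeq on build GRCm38.p6, which held 2 of the 3 genes, and capitals mark each match to the E-box letters CANNTG, the core bound by bHLH factors, which reads the same on both strands.
Prdm8, chr5:98180619-98180868, plus strand: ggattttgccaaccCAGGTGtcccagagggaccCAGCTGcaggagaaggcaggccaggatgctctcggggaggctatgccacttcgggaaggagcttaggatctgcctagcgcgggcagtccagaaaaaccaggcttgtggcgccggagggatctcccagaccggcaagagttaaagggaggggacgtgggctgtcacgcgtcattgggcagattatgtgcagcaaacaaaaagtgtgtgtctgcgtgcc
Prdm16, chr4:154636874-154637123, minus strand: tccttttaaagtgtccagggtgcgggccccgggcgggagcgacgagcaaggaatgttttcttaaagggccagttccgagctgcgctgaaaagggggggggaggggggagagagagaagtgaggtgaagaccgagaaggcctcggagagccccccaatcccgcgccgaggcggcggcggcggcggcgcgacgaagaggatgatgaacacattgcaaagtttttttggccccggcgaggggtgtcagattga
The Prdm8 window lies inside the span of the gene, since the RefSeq start lies downstream of the start in the count table, and holds 2 matches, CAGGTG at 236 and CAGCTG at 217 bases before the start. The Prdm16 window holds none. Of 32851 promoter windows of this length, 66.2% hold at least 1 match, so the letters do not set Prdm8 apart. Guanine and cytosine make up 59.6% of the Prdm8 and 62.4% of the Prdm16 window.

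The cultures had 16962903 to 22708400 counts each, and 5701 of 14432 genes tested (39.5%) passed an adjusted p of 0.05 between genotypes by edgeR's quasi-likelihood test, 2858 of them lower (19.8%) and 2843 higher (19.7%) in cKO. Nothing in the labels says that the cultures came from separate embryos, so p-values measure only the spread between these cultures. Counts of Syncrip, which cover exons outside the loxP sites too, were 1731, 1433 and 1790 in WT and 1841, 1522 and 1690 in cKO cultures (log2 fold change 0.13, SE 0.08), so they did not check the genotypes and the labels are used as given. Y-linked counts were high in WT cultures 1 and 2 and cKO culture 1 and between 0 and 1 in the others, so that each genotype held both kinds of culture. Of the progenitor markers, Vim, Nes and Slc1a3 were well expressed in all cultures, while Sox2 was listed at 0 in all of them.

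Prdm8 was close to lost in the cKO cultures. In CPM, the count of a gene scaled to the TMM-normalised total of its library, it was at 10.8, 10.2 and 17.4 in the WT cultures, from 239, 183 and 391 counts. In the cKO cultures it was at 0.736, 0.641 and 1.01 CPM, from only 15, 11 and 21 counts. Every WT culture was far above every cKO culture, and WT culture 3 was the highest. The means were 12.8 ± 4.03 and 0.796 ± 0.193 CPM (SD, n = 3 each), so that cKO cultures held 6.22% of the WT mean. The log2 fold change was -3.99 (SE 0.28), and 14 of the 14432 genes tested had a lower one.

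Prdm16 fell less in relative terms but from many more reads. Its WT cultures were at 586, 696 and 783 CPM, from 12501 to 17541 counts. The cKO cultures were at 238, 254 and 220.0 CPM, from 4352 to 4852 counts. The genotypes did not overlap, and the cKO cultures lay close together. The means were 688 ± 98.5 and 237 ± 16.8 CPM (SD, n = 3 each), a log2 fold change of -1.54 (SE 0.10), with 270 genes lower. The predicted gene Gm13111, at chr4:154637576-154644724 on the plus strand, starts 703 bases from the start of Prdm16 on the opposite strand. Its counts were 1557, 1525 and 2368 in WT and 477, 452 and 565 in cKO cultures (log2 fold change -1.76, SE 0.13; adjusted p = 3.37e-07, edgeR), and it was named after its values were seen.

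Bhlhe22, the partner of Prdm8, had few reads and no clear difference. WT cultures were at 2.25, 2.17 and 3.93 CPM and cKO cultures at 2.21, 1.69 and 2.02 CPM, from 29 to 88 counts each. The genotypes overlapped, with WT culture 2 below cKO culture 1, and WT culture 3 stood apart from the other 5. The log2 fold change was -0.50 (SE 0.28), and -0.16 without WT culture 3, which decided its size. A difference was not detected, which does not show that the gene was the same in both genotypes.

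**Figure D1:**
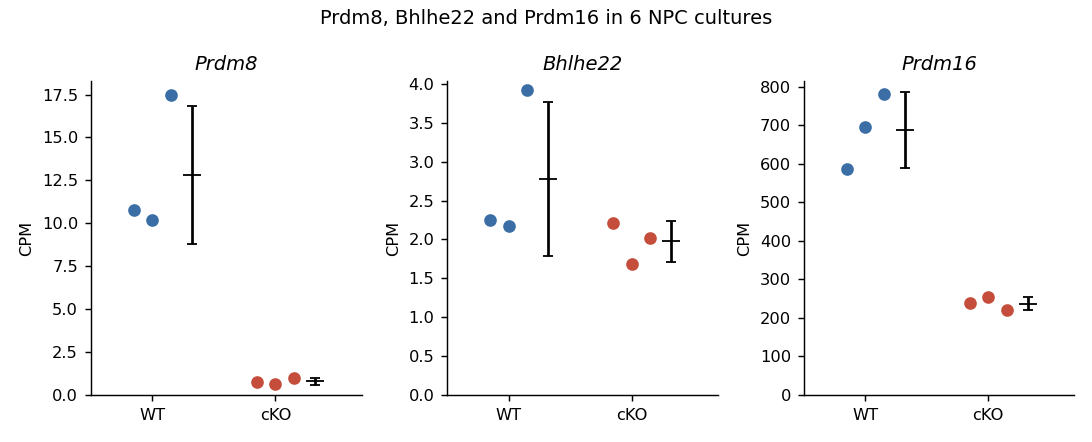
CPM of Prdm8, Bhlhe22 and Prdm16 (vertical axes, each from 0) in the 3 WT (blue) and 3 cKO (red) cultures, each point 1 culture, with the mean and SD in black beside them. For Prdm8 and Prdm16 all WT points lie above all cKO points, while for Bhlhe22 the genotypes overlap and WT culture 3, at 3.93 CPM, stands alone.

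Thus 2 of the 3 genes had values that did not overlap between genotypes, both lower in cKO. Over all genes tested, 50.4% did not overlap and 19.8% passed the threshold as lower, and since the genes were chosen on this contrast nothing is read from that. Within cultures that had Y-linked counts (WT 1 and 2 against cKO 1) the log2 ratios were -3.83 for Prdm8, -0.0033 for Bhlhe22 and -1.43 for Prdm16. Within the others (WT 3 against cKO 2 and 3) they were -4.40, -1.08 and -1.72. The falls of Prdm8 and Prdm16 were thus present in both sets of cultures, which are too small to test.

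Markers of differentiated cells moved with these values. In RNA from whole cultures, fewer cells of a type and less RNA per cell cannot be told apart. Of 8 neuronal markers tested, 7 fell and none rose, with a median log2 fold change of -0.73 against 0.0020 over all genes. The counts of this and the following lists stand beside 19.8% of all genes tested called lower and 19.7% called higher. Summed neuronal CPM ran from 2617 to 2879 in WT and from 2400 to 2511 in cKO cultures, and Tubb3 and Nefl were listed at 0 throughout. Stmn2, a microtubule regulator of growing axons, ranged from 13.2 to 16.4 CPM among WT cultures but only from 0.117 to 0.193 CPM among cKO cultures. Mapt, which codes for tau, ranged from 492 to 612 CPM and from 213 to 244 CPM in the same order.

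Glial markers moved as well. Of 5 astrocyte markers tested, 4 fell, and their summed level was 2917 to 3179 CPM among WT against 2064 to 2345 CPM among cKO cultures, with Gfap listed at 0. Of 5 markers of the oligodendrocyte lineage, 2 fell, Mbp among them, and Pdgfra rose, with sums of 2551 to 2964 CPM and 1239 to 1507 CPM and Gpr17 listed at 0. Of 5 GE markers, 2 fell, Dlx2 among them, with sums of 61.4 to 68.9 CPM and 54.0 to 59.1 CPM and Dlx1 listed at 0. With 5 genes, and 39.5% of all genes tested called in either direction, little is read from that count. Microglial markers summed to at most 2.27 CPM and endothelial ones to at most 4.06 CPM in any culture. The part of these cell types in the falls of Prdm8 and Prdm16 was not tested.

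The known partners and targets are set beside the members, and the relation between them was not tested. Prdm8 with Bhlhe22 represses Cdh11 in neurons, and Prdm16 limits Pdzrn3. Of the 5 listed genes, all tested, 2 were lower and none higher in cKO, with a median of -0.34. Cdh11 ranged over 170 to 189 CPM among WT and 129.96 to 135 CPM among cKO cultures (log2 fold change -0.45, SE 0.07; adjusted p = 0.000317, edgeR). Pdzrn3 overlapped between genotypes, at 6.71, 9.30 and 12.8 CPM against 5.59, 6.82 and 6.94 CPM (-0.58, SE 0.21; adjusted p = 0.0429, edgeR). The call of Pdzrn3 was lost with limma-voom (adjusted p = 0.0816) and without any 1 culture other than WT culture 1, with adjusted p from 0.0641 to 0.235 by edgeR, the last without WT culture 3, where the log2 fold change was -0.31. That of Cdh11 was kept in all 14 alternatives. The corepressor genes Ctbp1 and Ctbp2, whose products bind Prdm16, had values of -0.17 (SE 0.08) and -0.34 (SE 0.38). Ctbp2 had only 13 to 26 counts in each culture, so its value, which is the median of the 5, rests on few reads. Ehmt1, a histone methyltransferase gene and the last of the partners, was at 0.08 (SE 0.07). None of these 3 passed the threshold.

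No other Prdm gene that could be tested was called lower. Of 13 listed, 8 passed the filter on low counts, 3 were higher (2 with another scaling) and none was lower, with a median of 0.25. Over all genes tested 19.7% were higher and 19.8% lower, so with 8 genes little is read from these counts. Prdm15 rose by 0.27 (SE 0.10). Prdm1, which directs terminal differentiation in lymphocytes and other lineages, had a value of 1.66 (SE 0.51) from levels of at most 1.32 CPM in any culture. The 5 genes of the family that did not pass lay between 0.12 and 0.48.

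Relatives of Bhlhe22 gave no common direction. Of 7 Olig-related and Bhlhe genes, 4 passed the filter, with 2 higher and 1 lower, and Bhlhe23 and Olig3 were listed at 0. Bhlhe40, a clock-linked repressor, rose, with 47.6 to 51.4 CPM among WT and 102 to 108 CPM among cKO cultures (log2 fold change 1.08, SE 0.08). Its relative Bhlhe41 went the other way, with 34.9 to 40.3 CPM against 26.2 to 28.1 CPM (-0.50, SE 0.09). Olig1, a factor of oligodendrocyte precursors, rose by 0.44 (SE 0.10), and Olig2 was at 0.12 (SE 0.10), which did not pass.

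Among genes of cortical area identity, the field in which Bhlhe22 is known, all 11 were tested, 7 were lower and none was higher in cKO, with a median of -0.33. Nr2f2, a nuclear receptor of caudal and ventral territories, had the lowest value at -2.64 (SE 0.49), with 3.21 to 11.7 CPM among WT and 0.816 to 1.67 CPM among cKO cultures. Id2 fell by 0.91 (SE 0.09) from 163 to 188 CPM in WT. Sp8 and Bcl11a fell by 0.85 (SE 0.32) and 0.73 (SE 0.22), Epha7 by 0.45 (SE 0.13). Pax6, the rostral and radial glial factor, fell by 0.33 (SE 0.08) and Rorb by 0.25 (SE 0.08). Lmo4, Cdh8, Nr2f1 and Emx2 lay between -0.06 and 0.10 and did not pass.

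Of 13 excitatory lineage factors tested, 6 fell and 3 rose, with a median of -0.50. The lowest were Neurod6 at -4.14 (SE 0.28) and Neurod2 at -2.24 (SE 0.29), both bHLH factors of postmitotic neurons. Neurog2, the proneural factor upstream of them, rose by 0.70 (SE 0.21) and Tle4 by 0.41 (SE 0.09). Of 13 radial glial genes, the compartment of Prdm16, 5 rose and 3 fell, with a median of 0.23. Hes1, a Notch effector, was at 2.84 (SE 0.13) and Nes at 0.92 (SE 0.10), while Id4 fell by 1.07 (SE 0.11) and Sox9 by 0.34 (SE 0.08). Prdm16, chosen on this contrast, was lower, as were 3 of these 13 genes, while 5 were higher. Over all genes tested 19.8% were lower and 19.7% higher, and nothing is read from its direction beside theirs.

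**Figure D2:**
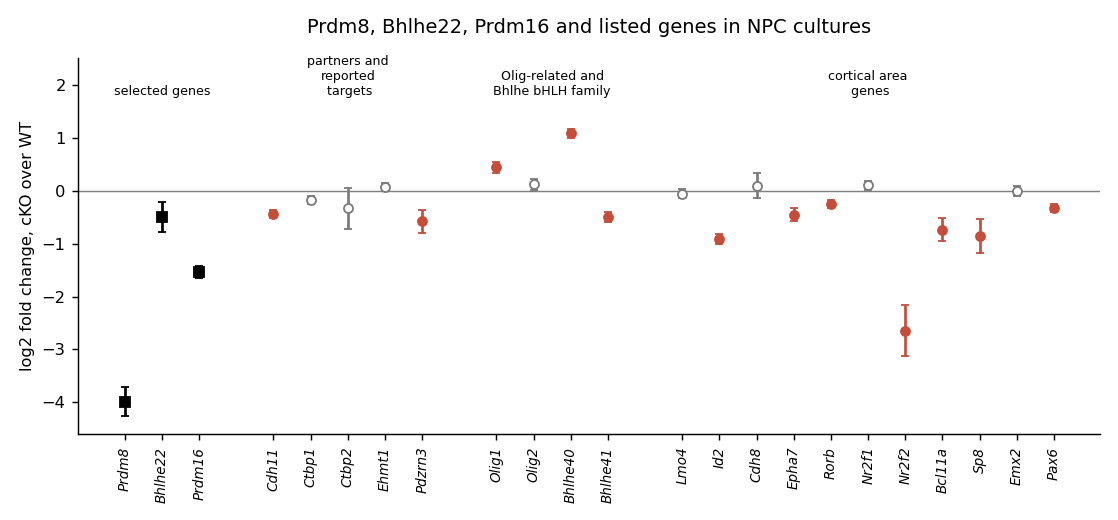
Log2 fold change of cKO over WT cultures (vertical axis) with its standard error for Prdm8, Bhlhe22 and Prdm16 (black squares, chosen on this contrast) and for the tested genes of 3 lists, filled red where adjusted p was below 0.05 and open grey where not. Prdm8 at -3.99 lies below all genes shown, and the area genes that passed lie below 0.

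The scRNA-seq held 8214 WT and 9560 cKO cells after filtering, with medians of 11705 and 11012.5 unique molecular identifiers (UMIs) per cell. Clustering used neither the 3 genes themselves nor Xist, Y-linked or mitochondrial genes, and clusters were called "like" a cell type only from fixed markers. A level is the UMIs of a gene summed over the cells of a class, divided by all UMIs of these cells and given as CPM, with an exact Poisson 95% interval in parentheses, and ratios carry an exact conditional interval. These intervals cover counting error only, and with 1 embryo per genotype no test between genotypes was made. The libraries shared 22 barcodes, and the embryos differed in sex (Xist had 2 UMIs in WT and 105339 in cKO cells). In apical progenitor (AP)-like cells Syncrip had 319 CPM (WT) and 328 CPM (cKO), and the UMIs, primed at the 3′ end, did not single out the deleted exons, so they did not check the genotype here either.

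Among the named classes Prdm16 was highest in AP-like cells. There it reached 262 CPM (253 to 271) in WT, from 3217 UMIs, and 273 CPM (265 to 281) in cKO, from 4965 UMIs. The log2 ratio of cKO over WT was 0.06 (-0.0039 to 0.12), so a fall like that of the cultures was not seen in these cells. The value was alike in the AP-like cluster led by Tnc and Hes5 (268 and 273 CPM) and in the one led by mitotic genes such as Aurkb and Ccnb1 (255 and 272 CPM). AP-like cells held 14.4% of all UMIs and 61.8% of those of Prdm16. Cells of 2 unnamed clusters with few UMIs per cell also had high levels: 257 CPM (222 to 297) in WT against 219 (189 to 253) in cKO in a cluster with a median of 1166 UMIs, whose best match was migrating neurons, and 141 (113 to 174) and 132 CPM (109 to 160) in one with a median of 2634.5 UMIs, whose best match was immature neurons.

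Taken by class, Prdm16 stepped down along the excitatory lineage. Intermediate progenitor (IP)-like cells, the neurogenic daughters of APs, were at 78.9 CPM (73.4 to 84.8) in WT and 78.6 (73.2 to 84.2) in cKO. Migrating neuron-like cells were at 40.3 (37.8 to 43.0) and 38.8 CPM (36.4 to 41.4). Immature neuron-like cells, without that unnamed cluster, were at 4.96 (4.14 to 5.89) and 5.44 CPM (4.60 to 6.38), within the range of cells that should lack the gene. The first 3 of these levels were separated by their intervals in both embryos, and the order was the same in both. It holds for classes as a whole and not for their clusters. The migrating neuron-like cluster led by Tafa1 and Tfap2d was at 105 CPM (89.6 to 123) in WT, above IP-like cells. In cKO that cluster was at 53.3 CPM (47.0 to 60.1).

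Prdm8 and Bhlhe22 took the opposite course. Prdm8 was at 7.57 CPM (6.11 to 9.27) in WT and 9.51 (8.15 to 11.04) in cKO AP-like cells, and at 34.2 (30.6 to 38.1) and 32.2 CPM (28.8 to 35.9) in IP-like cells. Of the IP-like UMIs of Prdm8, 118 of 326 in WT and 117 of 329 in cKO came from 1 cluster of 96 cells, of which 86.5% were called doublets, and without it the level was 25.02 (21.7 to 28.7) and 24.001 CPM (20.9 to 27.5). Of the named classes migrating neuron-like cells had the highest level, at 108 CPM (104 to 113) in WT against 137 (133 to 142) in cKO. Over immature neuron-like cells it was lower, at 80.03 (76.6 to 83.5) and 75.5 CPM (72.3 to 78.8). This order holds for classes as a whole and not for their clusters: in WT the highest cluster was an immature neuron-like one at 147 CPM and all unnamed cells pooled were at 121 CPM (115 to 126), above the migrating ones.

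Bhlhe22 was higher in immature than in migrating neuron-like cells. It went from 11.5 CPM (9.66 to 13.5) in WT and 16.1 (14.3 to 18.1) in cKO AP-like cells to 42.7 (38.7 to 47.1) and 42.3 CPM (38.4 to 46.5) in IP-like cells. The cluster mostly of called doublets gave 203 of 407 of these UMIs in WT and 206 of 432 in cKO, and without it the level was 24.5 (21.3 to 28.1) and 25.6 CPM (22.4 to 29.1). Migrating neuron-like cells were at 149 (144 to 154) and 153 CPM (148 to 158). Immature neuron-like cells were at 261 (255 to 268) and 249 CPM (243 to 255), above the migrating ones. Cajal-Retzius-like cells, the reelin-secreting neurons of the marginal zone, had the highest level of a named class, at 279 CPM (245 to 317) in WT against 294 (265 to 326) in cKO, from 63 and 112 cells. In WT this interval overlapped that of immature neuron-like cells, while over both embryos the levels were 288 (266 to 312) and 255 CPM (251 to 259). The highest single cluster was an immature neuron-like one, at 376 (364 to 387) and 372 CPM (360.3 to 384).

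Cajal-Retzius-like cells separated the partners. With Bhlhe22 at 279 and 294 CPM, Prdm8 was at 12.5 (6.26 to 22.4) and 8.78 CPM (4.39 to 15.7) there, no more than in cells outside the neural lineage, and Prdm16 at 5.70 (1.85 to 13.3) and 10.4 CPM (5.53 to 17.8). GE-like cells, which arise ventrally, were low for all: in WT and cKO Prdm8 was at 16.5 and 16.0 CPM, Bhlhe22 at 23.7 and 25.3 CPM, and Prdm16 at 17.6 and 13.03 CPM. Of the 402 Prdm8 UMIs in GE-like cells, 80 in WT and 77 in cKO came from 1 cluster in which 94.4% of cells were called doublets. Red blood cell-like cells, which should lack all of them, were at 13.4 (2.76 to 39.1) and 8.80 CPM (1.07 to 31.8) for Prdm8, 17.8 (4.86 to 45.6) and 30.8 CPM (12.4 to 63.5) for Bhlhe22 and 8.91 (1.08 to 32.2) and 4.402 CPM (0.111 to 24.5) for Prdm16, from 1 to 7 UMIs each. The levels of Prdm8 and Bhlhe22 in AP-like cells and that of Prdm16 in immature neuron-like cells lay within the intervals of this background and are not read as expression. For IP-like cells without the cluster of doublets, Prdm8 and Bhlhe22 lay within them too. These intervals rest on few UMIs and are too wide to tell whether IP-like cells express the genes. Over both embryos, IP-like cells without that cluster were at 24.5 CPM (22.2 to 27.0) for Prdm8 and 25.1 (22.8 to 27.6) for Bhlhe22. AP-like cells were lower, at 8.73 (7.71 to 9.84) and 14.2 CPM (12.9 to 15.6).

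Among vascular cells, only WT endothelial-like cells had an interval of Prdm16 above that of red blood cell-like cells. In endothelial-like cells it was at 45.2 CPM (34.1 to 58.9) in WT, from 55 UMIs, and 17.5 (10.5 to 27.3) in cKO, from 19 UMIs, in 24 and 33 cells. In pericyte-like cells 0 UMIs in WT, which allows up to 3, stood against 8 in cKO, from 27 and 18 cells. The intervals of red blood cell-like cells were 1.08 to 32.2 CPM in WT and 0.111 to 24.5 CPM in cKO. The cKO endothelial-like level lay within the latter, and the cKO pericyte-like interval (14.1 to 64.3) overlapped it. These values rest on few cells.

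**Figure D3:**
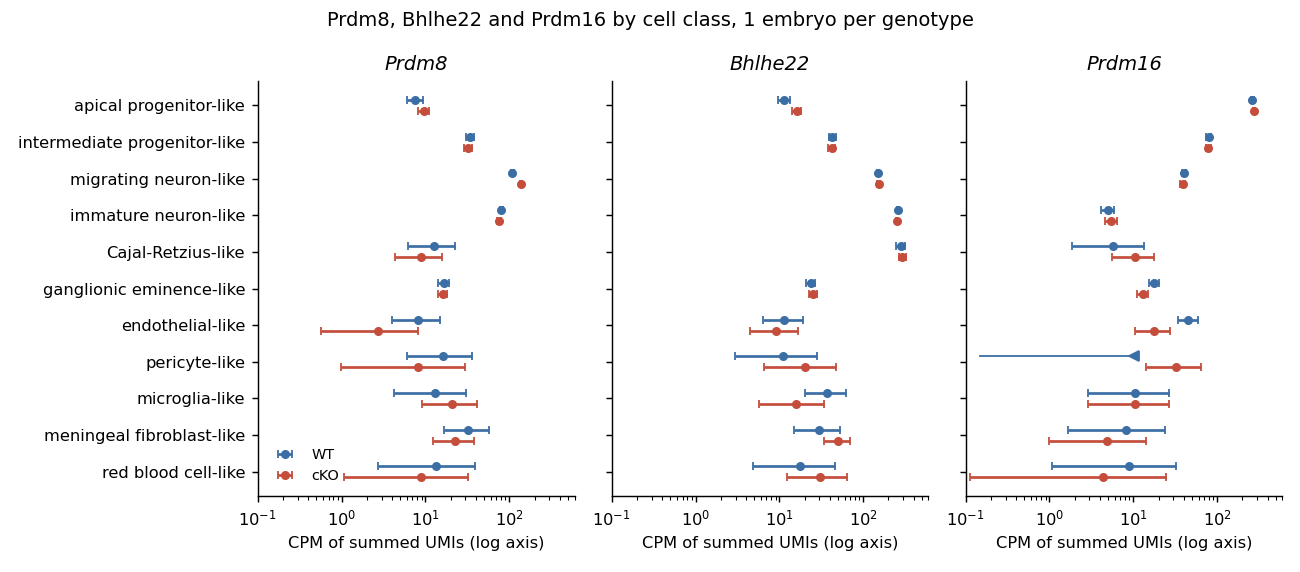
Level of Prdm8, Bhlhe22 and Prdm16 in 11 cell classes, as CPM of summed UMIs (horizontal log axis) in the WT (blue) and cKO (red) embryo with exact Poisson 95% intervals; an arrow marks the upper limit where no UMI was found. Prdm16 is highest at the top in AP-like cells and falls over the classes of the excitatory lineage. Of the classes shown Prdm8 is highest in migrating neuron-like cells and Bhlhe22 in immature neuron-like and Cajal-Retzius-like cells. Unnamed clusters are not shown.

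Prdm8 in migrating neuron-like cells differed between the embryos, with a log2 ratio of 0.34 (0.26 to 0.41). The class was made of 3 clusters that the embryos filled unevenly. The cluster with Neurod1 and Unc5d among its leading genes held 909 WT and 857 cKO cells and had Prdm8 at 77.6 and 80.8 CPM, a ratio of 0.06 (-0.08 to 0.20). The one marked by Ndst3 and Nrp1, with 919 and 836 cells, was at 135 and 167 CPM, a ratio of 0.30 (0.20 to 0.41). The one led by Tafa1 and Tfap2d held 135 WT but 478 cKO cells and was at 127 and 188 CPM, a ratio of 0.57 (0.34 to 0.80). Without it the ratio of the class was 0.21.

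That uneven cluster also stood out for the other genes. Its Bhlhe22 level was 176 CPM (155 to 199) in WT against 218 CPM (205 to 231) in cKO cells, a ratio of 0.31 (0.11 to 0.51). For Prdm16, 105 CPM (89.6 to 123) in WT stood against 53.3 CPM (47.0 to 60.1) in cKO cells, a ratio of -0.98 (-1.28 to -0.69). Whether the 2 embryos contributed the same kind of cell to this cluster was not tested.

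Immature neuron-like cells fell into 2 clusters with different levels of the pair. The cluster led by Hs3st4 and Mc4r had Prdm8 at 35.01 CPM in WT and 42.2 in cKO (0.27; 0.11 to 0.43) and Bhlhe22 at 184 and 178 CPM. The cluster led by Crabp1 and Slit3 had Prdm8 at 147 and 133 CPM (-0.14; -0.25 to -0.04) and Bhlhe22 at 376 and 372 CPM. The ratio of Prdm8 thus had opposite signs in them, and over the class it was -0.08 (-0.17 to 0.0038). An unnamed cluster led by Inhba was at 139.6 and 144 CPM for Prdm8 and at 292 and 286 CPM for Bhlhe22.

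Over whole classes, Bhlhe22 differed little between the embryos where it was high. Its ratio was -0.07 (-0.12 to -0.02) in immature and 0.03 (-0.03 to 0.10) in migrating neuron-like cells, and -0.01 (-0.21 to 0.18) in IP-like cells. The migrating clusters went both ways. The ratio was -0.14 (-0.29 to 0.0075) in the cluster with Neurod1, -0.09 (-0.17 to -0.0013) in that with Ndst3 and 0.31 (0.11 to 0.51) in that led by Tafa1. In AP-like cells the ratio was 0.49 (0.19 to 0.79) at a level within the background, and it changed sign to -0.11 when clusters were drawn more coarsely. For Prdm8 in AP-like cells the ratio was 0.33 (-0.04 to 0.71) and -0.20 with coarser clusters. Prdm16 ratios were -0.01 (-0.15 to 0.14) in IP-like and -0.05 (-0.19 to 0.08) in migrating neuron-like cells, and -0.43 (-0.73 to -0.13) in GE-like cells, where the level was low.

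**Figure D4:**
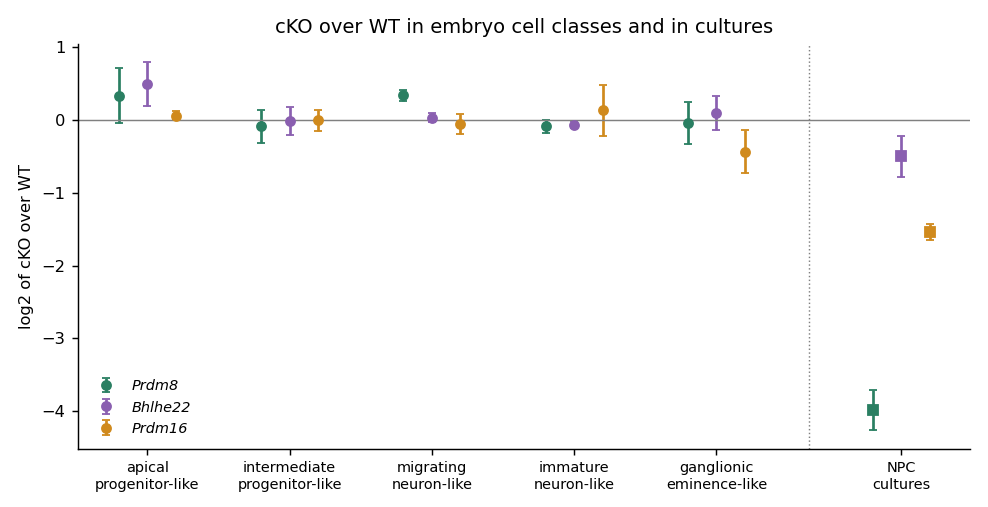
Log2 of cKO over WT for Prdm8, Bhlhe22 and Prdm16 (vertical axis) in 5 cell classes of the embryos (circles, exact 95% counting intervals) and in the cultures (squares, standard errors, 3 against 3). The squares of Prdm8 and Prdm16 at -3.99 and -1.54 lie far below their circles, which stay between -0.43 and 0.34.

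For cells with a UMI, each cell was thinned to 3000 UMIs and shallower cells were left out, which took 14 WT and 7 cKO AP-like cells, 36 and 66 migrating and 21 and 20 immature neuron-like cells. Prdm16 was found in 47.9% of WT (44.3 to 51.6) and 52.7% of cKO (49.7 to 55.7) AP-like cells with exact binomial intervals, and in 87.6% and 90.5% without thinning. In immature neuron-like cells it was found in 1.53% and 1.51%. Red blood cell-like cells, which should lack it, gave 1 of 60 cells (1.67%; 0.04 to 8.94), with median depths of 3569.5 UMIs in WT and 2838 in cKO against 14098 and 13830 in AP-like cells.

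Prdm8 was found in 25.1% of WT (23.2 to 27.1) and 31.9% of cKO (29.9 to 33.9) migrating neuron-like cells, and in 19.3% (17.3 to 21.4) and 18.5% (16.7 to 20.4) of immature ones. Unthinned, these were 63.5%, 65.2%, 50.3% and 51.0%. Bhlhe22 was found in 47.0% (44.5 to 49.6) and 44.2% (41.8 to 46.6) of immature neuron-like cells, 30.7% and 31.8% of migrating ones, and 30 of the 50 and 43 of the 86 Cajal-Retzius-like cells deep enough. Unthinned, 80.7% and 78.4% of the immature cells held it. In red blood cell-like cells 1 of 60 had Prdm8 and 2 of 60 (3.33%; 0.41 to 11.5) had Bhlhe22, and the shares of AP-like cells over both embryos, 1.79% and 3.47%, lay within these intervals.

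In single cells, detection of the partners was compared at 3000 UMIs with no test. Of WT immature neuron-like cells with a Prdm8 UMI, 55.9% (49.9 to 61.7) also had one of Bhlhe22, against 44.9% (42.1 to 47.7) of those without Prdm8. In the cKO embryo these were 55.7% (49.9 to 61.3) and 41.6% (39.0 to 44.3). In migrating neuron-like cells the shares lay closer, with 33.1% (28.9 to 37.4) against 29.9% (27.5 to 32.3) in WT, where the intervals overlap, and 37.6% (33.9 to 41.3) against 29.1% (26.8 to 31.6) in cKO. Since clusters of a class differ in both genes, this describes the cells of a class and not a link within a cell.

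Detection of Prdm16 in cells with and without Bhlhe22 differed between classes. Among WT migrating neuron-like cells, Prdm16 was in 6.09% (4.30 to 8.33) of those with a Bhlhe22 UMI and 12.4% (10.6 to 14.2) of those without. In the cKO embryo the values were 8.81% (6.77 to 11.2) and 12.3% (10.7 to 14.1), with overlapping intervals. In IP-like cells the share was also lower with Bhlhe22, at 7.81% (2.59 to 17.3) against 22.7% (19.6 to 26.1) in cKO. In WT IP-like cells it was 16.7% against 19.8%, with overlapping intervals. AP-like cells went both ways, at 55.0% against 47.7% in WT and 45.5% against 53.0% in cKO, with overlapping intervals. In immature neuron-like cells, where Prdm16 is at background, the share was larger with Bhlhe22. It was 2.12% (1.19 to 3.48) against 1.01% (0.43 to 1.97) in WT and 1.91% against 1.19% in cKO, again with overlapping intervals. Over 22 clusters with at least 50 cells of each embryo, log2(CPM + 1) of Prdm8 and Bhlhe22 had a Pearson r of 0.78, Prdm8 and Prdm16 one of -0.04, and Bhlhe22 and Prdm16 one of -0.32. The clusters share their libraries, and r is given as a description.

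**Figure D5:**
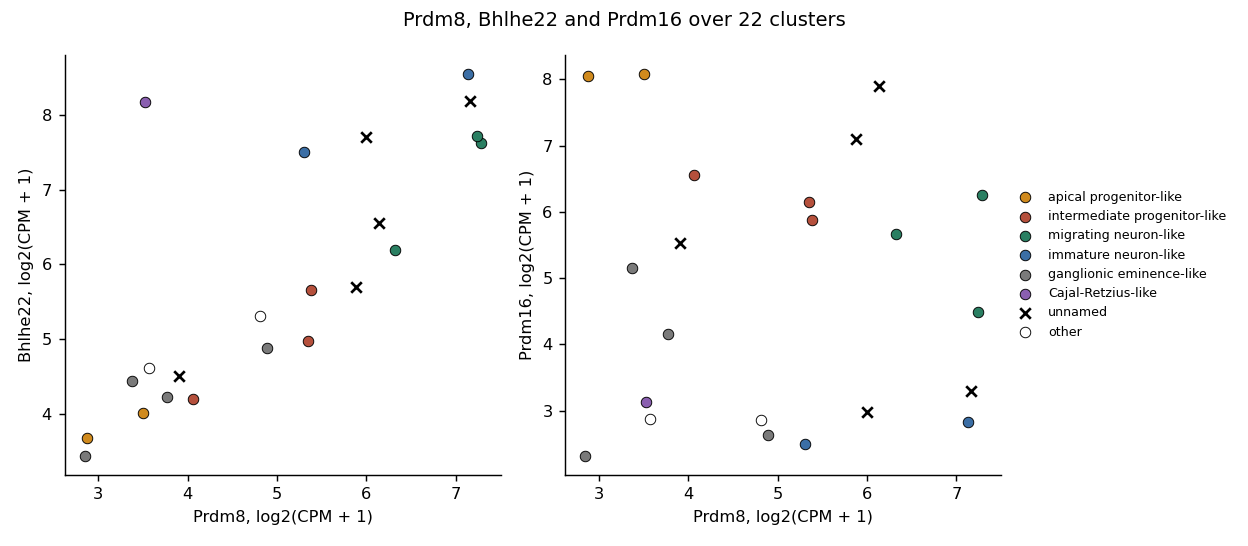
Levels of Bhlhe22 (left) and Prdm16 (right) against Prdm8 over 22 clusters, each point the mean of the WT and cKO log2(CPM + 1) of a cluster, coloured by class, with crosses for unnamed clusters and white points for classes outside the neural lineage. Bhlhe22 goes with Prdm8 (r = 0.78) except in the Cajal-Retzius-like cluster, at the upper left, while Prdm16 shows no such relation (r = -0.04).

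Among 11485 genes, the 5 most like Prdm8 over these clusters included Neurod2 (r = 0.93), the kinase gene Nuak1 (0.91), Nos1 (0.90) and Sstr3 (0.89). Those most like Bhlhe22 were Adra2c, Wnt7b and Cntn2 (each 0.91), Tbr1 (0.90), a factor of deep-layer neurons, and Nptx1 (0.88). The 5 most like Prdm16 included Plch1 and Creb5 (each 0.93), Dgkb (0.92) and Gli3 (0.90), the last a mediator of hedgehog signalling that is known from radial glia. They were chosen from the embryos only, so the cultures are separate data for them.

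In the cultures, 4 of the 5 genes most like Prdm8 were lower in cKO, as were 19.8% of all genes tested and 7 of the 8 neuronal markers. Neurod2 was at -2.24 (SE 0.29; adjusted p = 4.07e-05, edgeR), Nuak1 at -2.07 (SE 0.14; adjusted p = 1.63e-07, edgeR), Nos1 at -3.19 (SE 0.76) and Sstr3 at -1.50 (SE 0.46). Nos1 and Sstr3 had few reads, with WT means of 0.682 and 0.797 CPM and cKO means of 0.0643 and 0.275 CPM. Of the 5 genes most like Bhlhe22, Adra2c (-2.90, SE 0.31) and Cntn2 (-3.18, SE 0.30) were lower, Nptx1 was higher (0.46, SE 0.16), and Wnt7b and Tbr1 did not pass. Of the 5 most like Prdm16, Creb5 was not tested and none of the other 4 passed, with Plch1, Dgkb and Gli3 between -0.04 and 0.22. The difference between these sets was not tested.

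The targets took their own course in the embryos. Cdh11 was higher in cKO than in WT immature neuron-like cells, at 201 against 156 CPM (ratio 0.37; 0.31 to 0.43), and in migrating ones, at 66.6 against 43.2 CPM (0.63; 0.51 to 0.74), the class in which Prdm8 was higher in cKO too. In GE-like cells it was lower, at 91.1 against 111 CPM (-0.28; -0.40 to -0.17). Pdzrn3 was lower in cKO migrating neuron-like cells, at 93.5 against 126 CPM (-0.43; -0.51 to -0.35), and higher in GE-like cells, at 114 against 63.4 CPM (0.85; 0.72 to 0.98). Pdzrn3 was itself a leading gene of the migrating cluster marked by Ndst3, so its value in that class is tied to the clustering. The migrating class also holds the cluster led by Tafa1 and Tfap2d, with 135 WT but 478 cKO cells. The part of that cluster in the ratios of Cdh11 and Pdzrn3 was not tested. In AP-like cells, where Prdm16 was high, Pdzrn3 had 61.3 CPM in WT against 65.8 CPM in cKO (0.10; -0.03 to 0.24).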

How the data were processed

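RNA-seq counts per gene and culture were deposited by the authors as raw counts: reads were filtered by quality and aligned to mm10 with HISAT2, and the counting program is not given in the sources used here. scRNA-seq UMI counts per gene and barcode were deposited as written by Cell Ranger 7.0.0, which by default also counts reads in introns; whether that setting was kept is not given. RNA-seq was analysed in R 4.3.3 with edgeR 4.0.16 (filterByExpr, TMM, robust quasi-likelihood fit, Benjamini-Hochberg adjustment, threshold 0.05), with DESeq2 1.42.0 and limma 3.58.1 as alternatives, and the fit was tested on simulated data. Standard errors of log2 fold changes come from the F statistic. Barcodes under 200 genes or over 10% mitochondrial UMIs were dropped and the rest clustered with Seurat 5.3.0 (2000 variable genes, 30 components, resolution 0.8). A cluster was named when its markers had a mean standardized level of at least 0.5, at least 3 rose 1.5-fold, and no other class had more markers among its 10 leading genes; clusters of low UMI count needed an own marker there. The naming limits were chosen with the clusters in view. Scrublet (scanpy 1.11.5) marked doublets (298 WT and 451 cKO cells) which were removed only as an alternative. Depth was 100172392 UMIs in the WT and 111313526 in the cKO library. Gene models were those of GENCODE M21, in which all 3 genes have the coordinates of the count table.

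The genes and lists were chosen with earlier results of these data known. Named were the 3 genes, all tested genes of the family, partner and area lists, the 2 largest rises and falls of longer lists, and the 5 genes most like each over clusters (at least 10 CPM in 1 cluster, predicted genes left out). Stmn2, Mapt, Mbp, Pdgfra, Dlx2 and Gm13111 were named after their values were seen. Some genes that the rule names are not reported here.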

Additional observations from a re-analysis of the deposited data

Results flagged for a closer look

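The log2 ratio of cKO over WT had counting intervals on opposite sides of 0 in different cell classes for 3 genes. For Bhlhe22 it was 0.49 in AP-like and -0.068 in immature neuron-like cells, the former at the level of background. For Cdh11 it was 0.626 in migrating neuron-like and -0.283 in GE-like cells. For Pdzrn3 it was 0.852 in GE-like and -0.427 in migrating neuron-like cells. With 1 embryo per genotype these differences between classes were not tested. No group had enough samples for a check of single outlying samples.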

How the results depend on the processing

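In the cultures the direction of all 3 genes and their side of the threshold held in each of 14 alternatives, from -4.20 to -3.70 for Prdm8, -0.65 to -0.16 for Bhlhe22 and -1.65 to -1.44 for Prdm16, each of these bounds coming from leaving out 1 culture. Without WT culture 3 Bhlhe22 was at -0.16. The number of genes called ran from 4108 without cKO culture 3 to 6405. Genes lower among partners and targets went from 2 to 1, with Pdzrn3 lost, with limma-voom and in 5 of the 6 fits without 1 culture. Without WT culture 1 they rose to 3. Genes higher in the Prdm family went from 3 to 1 without WT culture 2 or cKO culture 1. In the fits without 1 culture they numbered at most 4.

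With the replicate number as a block, 6405 genes were called, and Prdm8, Bhlhe22 and Prdm16 were at -3.99, -0.47 and -1.53, with no call of them changed. Deviations of same-numbered cultures correlated by 0.264, -0.0466 and 0.116, and those of unlike-numbered cultures by -0.344 to 0.286. Deviations within 3 cultures are tied to each other, so these values cannot tell whether the numbers pair the cultures.

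In the embryos, clusters at resolution 0.4 gave ratios of -0.2022 for Prdm8 in AP-like and 0.2538 in migrating neuron-like cells, -0.1096 (sign changed) and -0.1145 for Bhlhe22 in the same classes, and 0.1516 for Prdm16 in IP-like cells. Without the cluster of lowest UMI count, Prdm8 was at 0.7216 in AP-like, 0.2133 in migrating and 0.2702 in immature neuron-like cells, and Bhlhe22 at -0.1136 in migrating ones. With equal weight for each cell, Prdm8 was at 0.3599 and Bhlhe22 at -0.2979 in GE-like cells. Without called doublets, Bhlhe22 was at 0.1923 in IP-like cells. The causes were not tested, and the other 84 values, 6 of them without the clusters mostly of called doublets, chosen after seeing the data, stayed within their counting intervals. Of 150 shares under other settings 71 moved out of theirs, 55 of them with another depth. The depth of Bhlhe22 in the cultures, 29 to 88 counts each, and 1 embryo per genotype limit what can be told.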
